A study of Mus musculus with 24 samples.

Results

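Corticosteroid signalling and the corticotropin-releasing hormone (CRH) system of the mouse brain were followed through 9 genes taken by name from the 55487 gene identifiers counted in each library, and all 9 were found. They are Nr3c1 and Nr3c2 (the glucocorticoid and mineralocorticoid receptors), Fkbp4 and Fkbp5 (co-chaperones of these receptors), Hsd11b1 (an enzyme that restores active corticosteroid), Crh, its receptors Crhr1 and Crhr2, and its binding protein Crhbp. The mice were wild-type and had undergone olfactory bulbectomy, an operation that takes out the olfactory bulbs, or a sham operation. Polyadenylated RNA was sequenced from 4 bulbectomy and 5 sham hippocampi, 3 bulbectomy and 5 sham cortices, and 2 bulbectomy and 5 sham cerebella, 24 libraries in all, with 1 read per fragment. The labels used here state neither strain, age nor time after surgery, and do not say that the libraries of a group came from separate animals. The p-values therefore measure the spread between these libraries, which may be partly technical.

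Corticosteroids are the end product of the hypothalamic-pituitary-adrenal axis, which CRH from the hypothalamus starts. In the brain they bind the mineralocorticoid receptor with high affinity and the glucocorticoid receptor with lower affinity, and the hippocampus is known for holding much of both. Both receptors wait in the cytoplasm in a complex with heat shock protein 90, where FKBP5 lowers and FKBP4 favours hormone binding and movement to the nucleus. Fkbp5 is itself induced by glucocorticoids. Outside the hypothalamus CRH is made by some interneurons of the hippocampus and cortex and by neurons that project to the cerebellum, whose Purkinje and granule cells carry CRHR1, and the secreted binding protein withholds CRH and urocortin from the receptors.

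The promoters of Crhbp, Crhr1 and Hsd11b1 are shown because these genes differed between the cerebellum and both other sham tissues, Crhbp in one direction and Crhr1 and Hsd11b1 in the other. Crh differed there by more than Crhr1 and Hsd11b1, but no promoter of it was used here. Fkbp4 and Fkbp5 also differed from the cerebellum in both tissues, in cortex by more than Crhr1, and their promoters are not shown. Each run is the RefSeq promoter on GRCm38.p6, from 250 bases before to 50 bases after the annotated start, read 5′ to 3′ on the gene's strand, and capitals mark the motif matches. Crhbp lies at chr13:95444782-95445081 on the minus strand, Crhr1 at chr11:104132531-104132830 on the plus strand and Hsd11b1 at chr1:193242311-193242610 on the minus strand. The Hsd11b1 window lies inside the annotated gene (193221634 to 193264075) and not at its 5′ end, so another start of this gene was not searched.
Crhbp: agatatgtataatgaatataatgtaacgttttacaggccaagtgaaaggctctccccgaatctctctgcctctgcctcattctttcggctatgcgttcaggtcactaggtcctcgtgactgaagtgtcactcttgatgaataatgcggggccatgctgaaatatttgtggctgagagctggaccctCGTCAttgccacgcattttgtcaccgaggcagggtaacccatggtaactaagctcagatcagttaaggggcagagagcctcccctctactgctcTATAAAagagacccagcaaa
Crhr1: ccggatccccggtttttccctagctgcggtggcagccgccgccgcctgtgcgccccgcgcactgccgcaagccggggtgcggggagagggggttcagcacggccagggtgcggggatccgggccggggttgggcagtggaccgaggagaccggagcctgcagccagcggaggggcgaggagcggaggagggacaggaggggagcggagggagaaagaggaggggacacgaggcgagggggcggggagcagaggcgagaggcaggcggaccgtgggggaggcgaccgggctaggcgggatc
Hsd11b1: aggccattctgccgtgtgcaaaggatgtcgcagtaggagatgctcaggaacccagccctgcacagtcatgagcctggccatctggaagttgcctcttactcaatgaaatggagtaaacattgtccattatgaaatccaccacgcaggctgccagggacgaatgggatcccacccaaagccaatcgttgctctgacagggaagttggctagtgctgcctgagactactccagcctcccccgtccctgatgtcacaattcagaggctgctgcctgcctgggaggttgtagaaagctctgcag
Of these windows that of Crhr1 was 75.0% G and C, that of Hsd11b1 54.67% and that of Crhbp 48.0%. A set of 4 motifs was searched on both strands: the full glucocorticoid response element (AGAACA, any 3 bases, then its reverse complement), the cAMP response element TGACGTCA, its core TGACG, which the full element contains, and TATAAA. The Crhbp window held TGACG on the opposite strand (printed as CGTCA) at positions -64 to -60 and TATAAA at positions 31 to 36 after the annotated start, and the Crhr1 and Hsd11b1 windows held none of the 4. Of all 32851 RefSeq promoters of this length, 20.81% held TGACG, 13.62% TATAAA, 1.79% the cAMP response element and 0.00913% the full glucocorticoid response element. Of the 7 genes with an entry (Nr3c2, Fkbp4, Fkbp5, Hsd11b1, Crhr1, Crhr2 and Crhbp), none held either full element, Fkbp4 also held TGACG and Crhr2 also held TATAAA.

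The libraries differed in ways the groups do not explain. Hippocampus sham 4 held 138963332 reads assigned to genes and hippocampus sham 1 held 3255661, and the others ranged between 8145624 and 20230673. The cerebellum libraries carried their markers, with summed cerebellar granule cell markers of 2726 to 4844 CPM (the reads of a gene per 1000000 scaled library reads) in the cerebellum and at most 132.6 CPM elsewhere. Dentate granule markers summed to 132.3 to 266.2 CPM in the hippocampus libraries except sham 2, which had 29.14 CPM, inside the 17.37 to 50.49 CPM of the cortex and cerebellum libraries. Striatal markers summed to 2594 CPM in hippocampus sham 1 and 3820 CPM in hippocampus sham 2, against at most 402.5 CPM in the other 7 hippocampus libraries. In cerebellum sham 1 transcripts of at least 6000 exon bases stood 1.248 log2 units further above those under 2000 bases than in the average library, and in the other 23 libraries this balance lay between -0.6257 and 0.6842.

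None of the 9 genes changed after bulbectomy in any tissue when an adjusted p under 0.05 in the quasi-likelihood test of edgeR was required, whereas tissue differences were large. In the hippocampus 0 of 9 passed, beside 1.55% of the 13985 genes tested (0.551% higher and 1% lower). Nor did any of the 9 have groups without overlap there, which 9.31% of genes had (3.7% with bulbectomy higher and 5.61% with bulbectomy lower). In the cortex 0 of 9 passed, beside 0.0202% of 14847 genes, and in the cerebellum 0 of the 7 tested passed, beside 0.0131% of 15295 genes. At an unadjusted p under 0.05 stood Hsd11b1 and Crh in the hippocampus, beside 19.98% of all genes tested there. Crhr2 and Crhbp did so in the cortex, beside 5.907%, and Crhr1 in the cerebellum, beside 2.968%. Between sham tissues 2 of 9 passed for hippocampus against cortex (3.3% of 15142 genes, 2.09% higher and 1.21% lower), 8 of 9 for hippocampus against cerebellum (28.4%) and 6 of 9 for cortex against cerebellum (34.7%). In bulk tissue fewer cells of a type and less RNA per cell cannot be told apart, and this applies to every level given here.

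**Figure D1:**
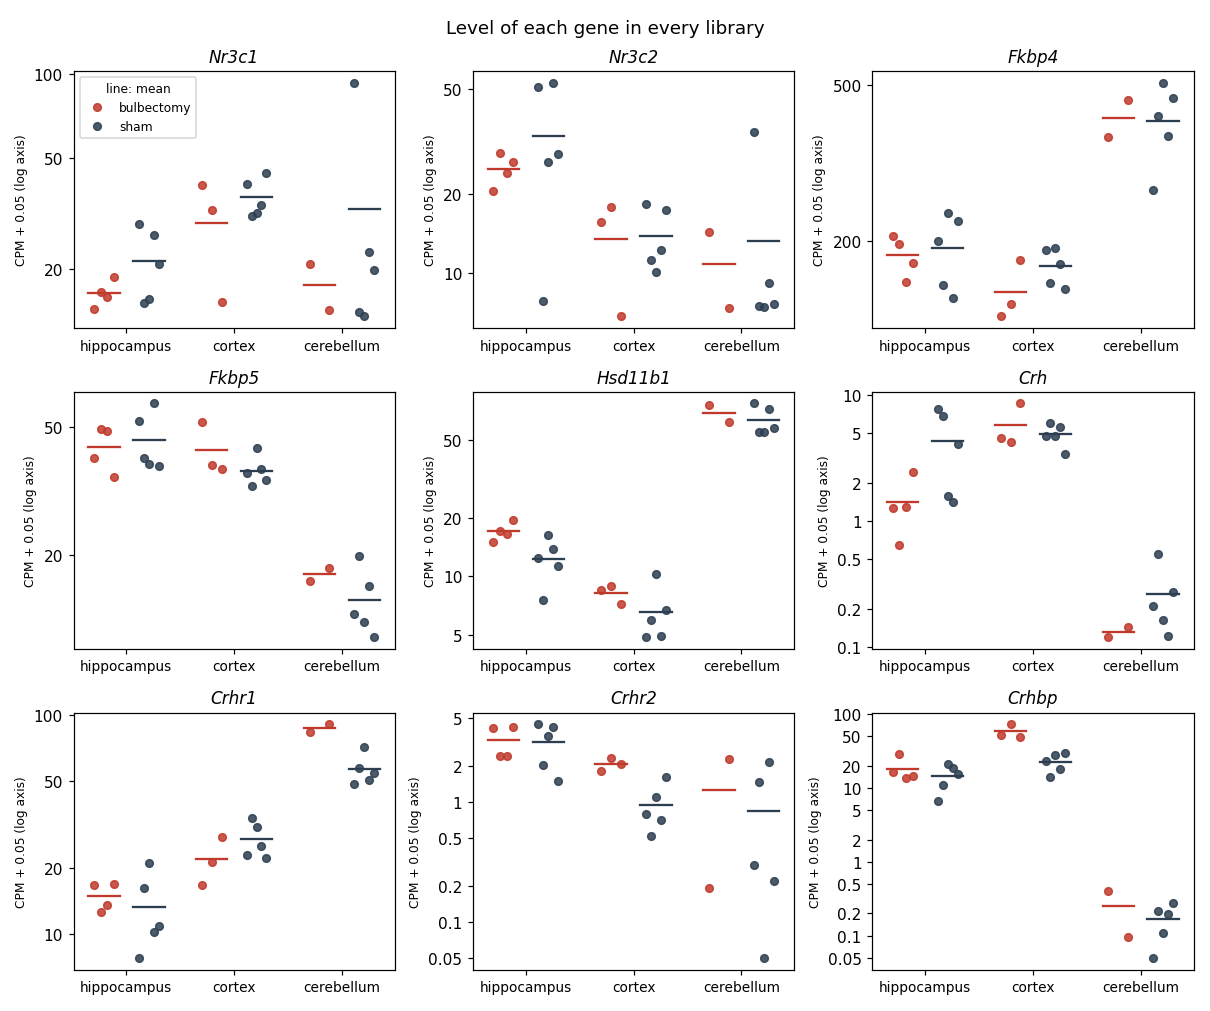
Level of each of the 9 genes in every library, as CPM plus 0.05 on a log axis, for hippocampus, cortex and cerebellum; red points are bulbectomy libraries, dark points sham libraries, lines group means. Crh and Crhbp lie below 0.5 CPM in all 7 cerebellum libraries, while Hsd11b1 and Crhr1 are highest there.

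Crhbp in the cortex had the smallest p of the 9 genes after bulbectomy, and its level there was higher in all 3 bulbectomy libraries. The gene lies on chromosome 13 between 95431371 and 95444924 on the minus strand and shares no exon base with another gene. It had 52.3, 72.9 and 49.4 CPM in the bulbectomy cortices, against 23.0, 14.1, 28.2, 18.0 and 29.6 CPM in the sham cortices. Each bulbectomy cortex was above each sham cortex. The log2 fold change was 1.40 ± 0.25 (SE), a 2.63-fold higher level, with an unadjusted p of 1.07e-04, the 9th smallest of 14847, and an adjusted p of 0.176 by edgeR's quasi-likelihood test. The call therefore hung on the method: DESeq2 gave an adjusted p of 4.18e-04, and edgeR without a filter on low counts gave 3.52e-04. Leaving out cortex bulbectomy 1 or 4 also brought the edgeR value under the threshold, at 0.0189 and 0.0488, while leaving out bulbectomy 2 gave 0.813 and a log2 fold change of 1.19. Genes without overlap between the groups and higher after bulbectomy made up 1.85% of all genes tested in the cortex, and Crhbp and Crhr2 were the 2 of the 9 among them. None of the 9 was lower without overlap, beside 1.66% of genes.

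In the other tissues Crhbp did not separate the groups. In the hippocampus it had 16.6, 28.5, 13.6 and 14.3 CPM after bulbectomy, against 6.63, 10.8, 20.99, 18.4 and 15.6 CPM after sham surgery. Those groups overlapped, and the log2 fold change was 0.37 ± 0.29 (adjusted p = 0.498). In the cerebellum 1 to 5 reads per bulbectomy library and 0 to 4 per sham library were assigned to it, and it was not tested. A count of 3 reads corresponds to 0.1412 to 0.2493 CPM in these libraries, so a lower level could not be told from none. Among sham tissues Crhbp was higher in hippocampus than in cerebellum by 6.86 ± 0.47 log2 units (adjusted p = 1.36e-08) and higher in cortex than in cerebellum by 7.47 ± 0.47 (adjusted p = 4.95e-09). Hippocampus and cortex differed by -0.61 ± 0.31 (adjusted p = 0.423).

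Since cortical Crhbp is known from inhibitory neurons, among them somatostatin cells, the interneuron markers are given beside it. All 10 were detected in every cortex library, their sum was 1215, 2246 and 1854 CPM after bulbectomy against 1198 to 1497 CPM after sham surgery, and none of the 10 passed the test. Their log2 fold changes were positive for 7 and negative for 3, with a median of 0.27. Somatostatin (Sst) had 204.0, 327.9 and 381.2 CPM in the bulbectomy cortices, against 140.4 to 199.1 CPM in the sham cortices. Neuropeptide Y (Npy) had 84.1, 259.9 and 179.1 CPM after bulbectomy, against 49.9 to 82.9 CPM after sham surgery. Cortistatin (Cort) likewise had all 3 bulbectomy cortices, at 7.75, 8.02 and 13.9 CPM, above the sham cortices at 2.63 to 5.48 CPM. Lhx6, a transcription factor of the same cells, had 19.3, 14.7 and 13.5 CPM after bulbectomy against 15.4 to 20.3 CPM after sham surgery. The GABA-synthesising enzymes Gad1 and Gad2 had log2 fold changes of -0.19 ± 0.27 and -0.068 ± 0.40. Slc32a1 and Cck, also in the list, had 0.51 ± 0.18 (adjusted p = 0.737) and 0.37 ± 0.26. For Slc32a1 this was 81.5, 119.4 and 90.2 CPM after bulbectomy against 61.2 to 83.9 CPM after sham surgery. Cck, the largest single part of the summed markers in each cortex, had 451.3, 1158 and 873.4 CPM against 477.4 to 779.3 CPM. Gad2 was at 49.4, 33.0 and 9.66 CPM in the bulbectomy cortices against 25.1 to 46.8 CPM in the sham cortices. Parvalbumin (Pvalb, 0.095 ± 0.23) and Vip (0.17 ± 0.25) overlapped between the groups as well. The balance of long against short transcripts was 0.6842, -0.03204 and -0.4511 in bulbectomy cortices 1, 2 and 4, against 0.1582 to 0.5723 in the sham cortices. Crhbp has 1800 exon bases. Cortical layer markers summed to 481.3 to 527.6 CPM after bulbectomy, below the 540.0 to 629.7 CPM of the sham cortices. Hippocampal pyramidal markers summed to 330.7, 655.4 and 426.0 CPM against 250.9 to 349.7 CPM. Striatal markers summed to 431.5, 670.4 and 535.6 CPM against 320.6 to 448.9 CPM. Both, like the remaining marker sums, overlapped between the groups, and both were highest in bulbectomy 2, as was Crhbp. The part of these cells in the Crhbp values was not tested, nor was the part of transcript length in the values of Crhbp and the interneuron markers.

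**Figure D2:**
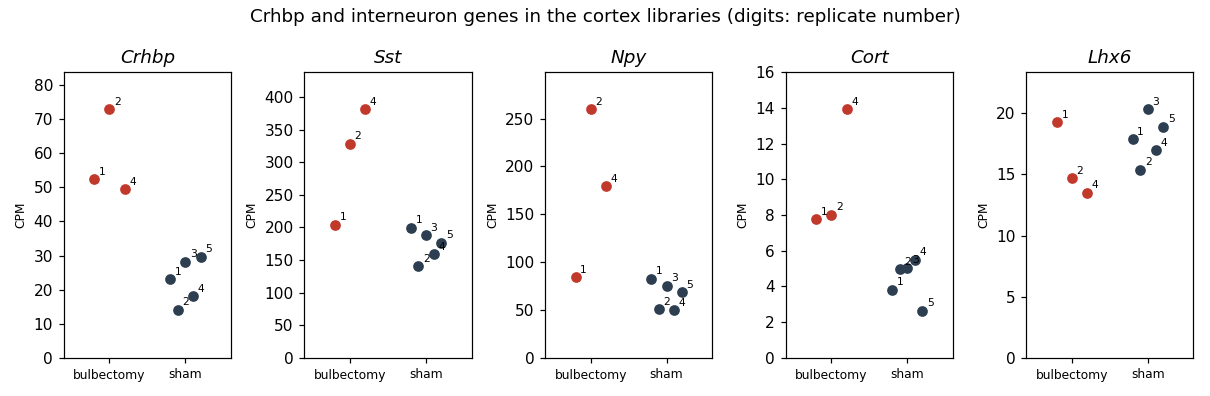
CPM of Crhbp and of the interneuron genes Sst, Npy, Cort and Lhx6 in the 3 bulbectomy (red) and 5 sham (dark) cortices on axes that start at 0; digits are replicate numbers. For Crhbp the bulbectomy cortices lie at 49.4 to 72.9 CPM and the sham cortices at 14.1 to 29.6 CPM, and Lhx6 overlaps between the groups.

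Crh itself, the peptide that the binding protein holds, was scarce and uneven in the hippocampus. The gene (chromosome 3, 19693401 to 19695396, minus strand) had 1.22, 0.599, 1.25 and 2.39 CPM in the bulbectomy hippocampi, against 7.73, 6.73, 1.53, 1.37 and 4.04 CPM in the sham hippocampi. High values came from sham 1, 2 and 5, and sham 3 and 4 lay inside the bulbectomy range. The log2 fold change was -1.56 ± 0.61 (adjusted p = 0.177). Sham 1 and 2 are the libraries with high striatal marker sums, and without them the log2 fold change was -0.65 (adjusted p = 0.570). Between 5 and 20 Crh reads per bulbectomy library stood behind these values.

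Cortical Crh had 4.49, 4.2 and 8.54 CPM after bulbectomy, against 4.65, 5.97, 4.66, 5.48 and 3.38 CPM after sham surgery. Bulbectomy 4 was the high library, the other 2 lay within the sham range, and the log2 fold change was 0.27 ± 0.30 (adjusted p = 0.899). In the cerebellum each library held 1 to 6 Crh reads, and the gene was not tested for bulbectomy there. Sham hippocampus exceeded sham cerebellum by 4.34 ± 0.61 log2 units (adjusted p = 3.63e-05) and sham cortex exceeded it by 4.50 ± 0.60 (adjusted p = 1.78e-05). Hippocampus and cortex were not told apart, with a difference of -0.17 ± 0.48 (adjusted p = 0.932).

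The ratio of Crhbp to Crh per exon length compares the binding protein with its ligand inside a library and does not depend on library scaling. In the cortex the log2 ratio averaged 2.95 ± 0.80 after bulbectomy and 1.75 ± 0.74 after sham surgery (SD, n = 3 and 5). The difference of 1.20 gave an exact permutation p of 0.107, two-sided, and 0.333 after Benjamini-Hochberg adjustment over the 7 ratio tests made. The smallest p that 3 against 5 libraries can give is 0.0179.

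The CRH receptors were distributed unlike their ligand. Crhr1, the receptor of higher affinity for CRH (chromosome 11, 104132855 to 104175523, plus strand), was highest in the cerebellum, with 83.6 and 90.8 CPM after bulbectomy, against 48.6, 57.4, 71.1, 50.7 and 54.2 CPM after sham surgery. Both bulbectomy cerebella lay above every sham cerebellum. The log2 fold change was 0.62 ± 0.19 with an unadjusted p of 0.0117 and an adjusted p of 0.9998. Genes higher in both bulbectomy cerebella than in all sham cerebella made up 6.21% of those tested, and Crhr1 was the only one of the 9. On the lower side there was none of the 9, beside 4.78% of genes.

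In the hippocampus Crhr1 had 16.7, 12.6, 13.5 and 16.8 CPM after bulbectomy, against 7.73, 16.1, 20.99, 10.2 and 10.9 CPM after sham surgery. In the cortex it had 16.7, 21.3 and 27.8 CPM after bulbectomy, against 22.8, 33.7, 30.8, 25.3 and 22.3 CPM after sham surgery. Both pairs of groups overlapped, with log2 fold changes of 0.22 ± 0.27 (adjusted p = 0.666) and -0.27 ± 0.21 (adjusted p = 0.881). Sham levels increased in the order hippocampus, cortex, cerebellum. Hippocampus was below cortex at a log2 fold change of -1.003 ± 0.23 (adjusted p = 0.0225) and the 2 groups did not overlap, as for 4.05% of all genes with hippocampus lower. Without hippocampus sham 1 and 2 the adjusted p of this difference was 0.0620, and leaving out 1 of hippocampus sham 1, 4 or 5 or of cortex sham 2 or 3 also ended the call. Hippocampus against cerebellum gave -2.06 ± 0.24 (adjusted p = 4.33e-06) and cortex against cerebellum -1.06 ± 0.23 (adjusted p = 0.00162).

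Crhr2, the receptor that urocortins prefer (chromosome 6, 55090049 to 55133016, minus strand), was the scarcest of the 9 per exon length in the sham hippocampus and cortex. The bulbectomy cortices had 1.77, 2.29 and 2.03 CPM, from 20 to 26 reads each, against 0.740, 0.470, 1.05, 0.658 and 1.57 CPM, from 7 to 25 reads, in the sham cortices. The groups did not overlap, and the log2 fold change was 1.18 ± 0.42 with an unadjusted p of 0.0158 and an adjusted p of 0.727. In the hippocampus the 4.09, 2.396, 2.37 and 4.18 CPM after bulbectomy overlapped the 4.42, 1.97, 3.52, 4.22 and 1.45 CPM after sham surgery (log2 fold change 0.13 ± 0.38, adjusted p = 0.866).

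Crhr2 values jumped between cerebellum libraries, with 0.142 and 2.26 CPM after bulbectomy against 0.246, 1.41, 0, 2.10 and 0.170 CPM after sham surgery. In rodents Crhr2 is known from the choroid plexus, and the summed level of 11 choroid plexus markers in the same libraries was 104.1 and 1370 CPM after bulbectomy against 955.7, 614.3, 111.5, 2229 and 98.5 CPM after sham surgery. The 3 libraries above 1 CPM of Crhr2 had marker sums of 614.3 CPM or more, although cerebellum sham 1 had a sum of 955.7 CPM with 0.246 CPM of Crhr2. In the hippocampus the marker sum ranged from 431.4 to 1629 CPM after bulbectomy and from 149.9 to 1715 CPM after sham surgery. In the cortex, where Crhr2 did not overlap, it was 84.0 to 155.5 CPM after bulbectomy and 105.1 to 143.2 CPM after sham surgery. Among these markers Ttr had a cortical log2 fold change of 2.49 ± 0.38 (adjusted p = 0.0603). Of the other markers tested there, Folr1, Clic6, Aqp1 and Sostdc1 were positive, and Kl, Kcnj13, Enpp2 and F5 negative. The part of choroid plexus tissue in the Crhr2 values was not tested. Sham hippocampus exceeded sham cerebellum by 2.04 ± 0.74 log2 units, at an adjusted p of 0.0496, a call that upper-quartile scaling (0.0503), no low-count filter (0.0644), the omission of hippocampus sham 1 and 2 together (0.109) and that of any 1 of hippocampus sham 1 to 4 or cerebellum sham 1, 3 or 5 (up to 0.106) each ended. Sham hippocampus against cortex gave 1.80 ± 0.73 (adjusted p = 0.256) and cortex against cerebellum 0.23 ± 0.75 (adjusted p = 0.847).

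**Figure D3:**
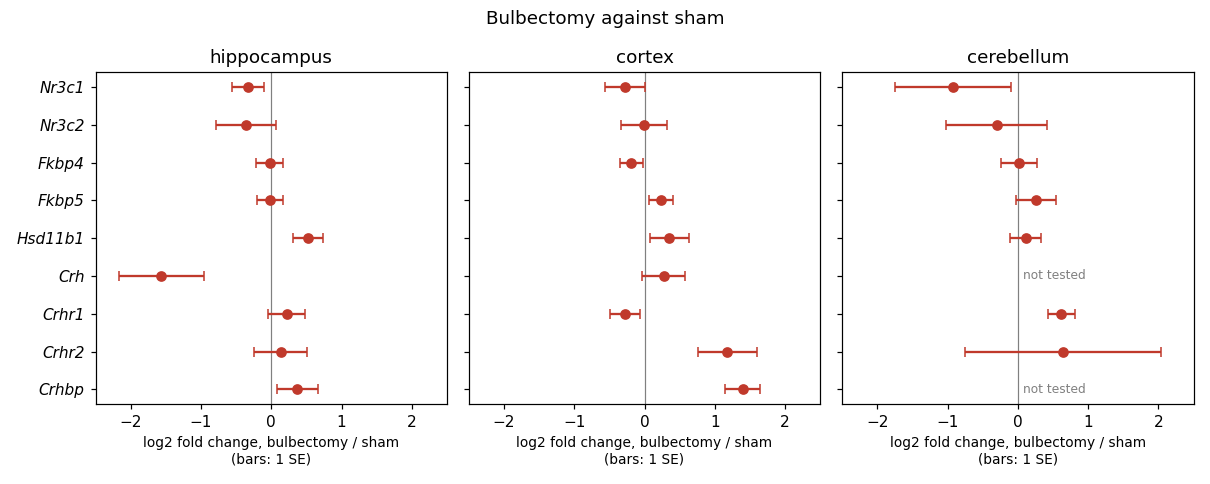
Log2 fold change of each gene, bulbectomy over sham, with bars of 1 SE, in hippocampus, cortex and cerebellum; Crh and Crhbp were not tested in the cerebellum. The point farthest right is Crhbp in the cortex at 1.40 and the one farthest left Crh in the hippocampus at -1.56, and no point passed an adjusted p of 0.05.

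The corticosteroid receptors were present in every library. Nr3c1 (chromosome 18, 39410545 to 39519421, minus strand) had 14.4, 16.5, 15.9 and 18.8 CPM in the bulbectomy hippocampi, against 29.0, 15.1, 15.6, 26.6 and 20.8 CPM in the sham hippocampi. Nr3c2 (chromosome 8, 76899442 to 77245012, plus strand) had 20.3, 28.4, 23.9 and 26.4 CPM in the bulbectomy hippocampi, against 50.6, 7.78, 26.4, 52.7 and 28.3 CPM in the sham hippocampi. The bulbectomy values sat close together, for Nr3c2 inside a wide sham range. For Nr3c1 they lay in the lower part of the sham range, with bulbectomy 1 below the lowest sham value. Sham 2, with its low dentate markers, had the lowest Nr3c2. Sham 1 and 4 were highest for both receptors and for the balance of long against short transcripts, at 0.5006 and 0.3588. This balance was -0.3525 to -0.07294 in the other sham hippocampi and -0.426 to -0.2073 in the bulbectomy hippocampi. Nr3c1 has 7684 exon bases and Nr3c2 6474, and the part of transcript length was not tested. Neither fold change was called, at -0.33 ± 0.22 for Nr3c1 (adjusted p = 0.416) and -0.36 ± 0.43 for Nr3c2 (adjusted p = 0.657). Of the Nr3c2 exon bases, 3.82% are shared with Gm10649 on the opposite strand, and the strand setting of the counting is not given in the sources used here.

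Cortical Nr3c1 had 40.1, 32.6 and 15.2 CPM after bulbectomy, against 40.5, 31.0, 31.8, 34.1 and 44.2 CPM after sham surgery. Cortical Nr3c2 had 15.6, 17.8 and 6.81 CPM after bulbectomy, against 18.3, 11.2, 10.04, 12.1 and 17.3 CPM after sham surgery. Bulbectomy 4 was lowest for both receptors and for the balance of long against short transcripts, at -0.4511 against -0.03204 and 0.6842 in the other bulbectomy cortices and 0.1582 to 0.5723 in the sham cortices. The log2 fold changes were -0.28 ± 0.28 for Nr3c1 (adjusted p = 0.890) and -0.0092 ± 0.33 for Nr3c2 (adjusted p = 0.996). Without bulbectomy 4 they were 0.013 and 0.29.

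Cerebellar Nr3c1 had 20.9 and 14.2 CPM after bulbectomy, against 93.4, 14.0, 13.5, 23.0 and 19.7 CPM after sham surgery. Cerebellar Nr3c2 had 14.3 and 7.29 CPM after bulbectomy, against 34.2, 7.48, 7.36, 9.14 and 7.60 CPM after sham surgery. Sham 1 stood far above the rest for both, and it is the library with the long transcript balance of 1.248; the part of transcript length was not tested. The log2 fold changes of -0.92 ± 0.83 for Nr3c1 and -0.30 ± 0.72 for Nr3c2 (both adjusted p = 0.9998) became -0.018 and 0.43 without it.

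The balance of the 2 receptors was lower in every hippocampus library but 1 than in any library of the other tissues. The Nr3c1 to Nr3c2 ratio per exon length was 0.491 to 0.599 in the 4 bulbectomy hippocampi, against 0.483, 1.635, 0.498, 0.424 and 0.620 in the sham hippocampi, so that Nr3c2 exceeded Nr3c1 in all but sham 2. It was 2.167, 1.545 and 1.874 in the bulbectomy cortices, against 1.865 to 2.665 in the sham cortices. In the cerebellum it was 1.23 and 1.64 after bulbectomy, against 1.547 to 2.303 after sham surgery. Nr3c1 thus exceeded Nr3c2 in all 15 libraries of cortex and cerebellum, cerebellum sham 1 included.

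Between sham tissues, a test added after these levels were seen, the log2 ratio averaged -0.65 in hippocampus and 1.18 in cortex (n = 5 each). The difference of -1.83 had an exact permutation p of 0.00794, the smallest that 5 against 5 can give, and 0.0238 after adjustment over 3 tests. Against a mean of 0.94 in the cerebellum the hippocampal difference was -1.59 (exact permutation p = 0.0238, adjusted 0.0357), and cortex against cerebellum differed by 0.24 (exact permutation p = 0.159). Taken as 5 pairs of same-numbered libraries, hippocampus was lower than cerebellum in 4 of 5 pairs. An exact sign-flip permutation test of these pairs gave p = 0.125, so the call was lost. The smallest p of 5 pairs is 0.0625. Without hippocampus sham 1 and 2 the unpaired hippocampal differences were -2.15 and -1.92, each at 0.0179, the smallest p of an exact permutation test of 3 against 5.

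Between bulbectomy and sham the ratio was not called in any tissue. In the hippocampus the mean log2 ratio was -0.84 after bulbectomy and -0.65 after sham surgery (exact permutation p = 0.889, n = 4 and 5). In the cortex the mean was 0.88 after bulbectomy and 1.18 after sham surgery (exact permutation p = 0.143, n = 3 and 5), and in the cerebellum 0.50 after bulbectomy and 0.94 after sham surgery (exact permutation p = 0.238, n = 2 and 5). Adjusted over the 7 ratio tests these p-values were 0.984, 0.333 and 0.417. The smallest unadjusted p that the exact test can give is 0.00794 in the hippocampus, 0.0179 in the cortex and 0.0476 in the cerebellum. After adjustment over 7 tests a single ratio alone could therefore not be called, whatever its difference.

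**Figure D4:**
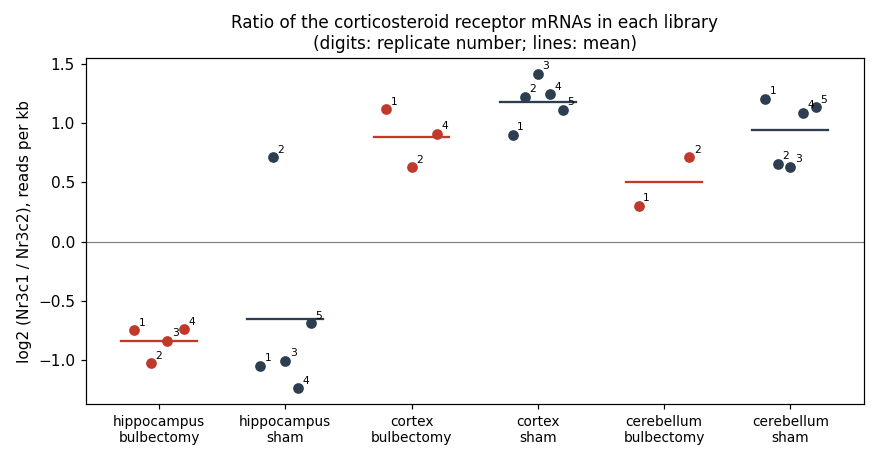
Log2 ratio of Nr3c1 to Nr3c2, reads per kilobase of exon, in each library of the 6 groups; digits are replicate numbers and lines group means. All hippocampus libraries except sham 2 lie below 0, where Nr3c2 is the more abundant, and all cortex and cerebellum libraries lie above 0.

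As single genes, Nr3c2 was higher in sham hippocampus than in sham cerebellum by 1.42 ± 0.48 log2 units (adjusted p = 0.0376), and hippocampus against cortex gave 1.29 ± 0.48 (adjusted p = 0.199). The call for hippocampus against cerebellum was lost without a filter on low counts (adjusted p = 0.0746) and without hippocampus sham 1, 4 or 5 or cerebellum sham 2, 3, 4 or 5, at up to 0.0967. Nr3c1 was not called in any pair, at -0.73 ± 0.43 for hippocampus against cortex (adjusted p = 0.533), although no sham hippocampus reached the lowest sham cortex. Nr3c1 and Crhr1 were the 2 of the 9 without overlap between these tissues, beside 6.85% of all genes, and none was higher in hippocampus without overlap, beside 2.8%. For hippocampus against cerebellum it gave -0.52 ± 0.43 (adjusted p = 0.408) and for cortex against cerebellum 0.21 ± 0.42 (adjusted p = 0.748). Without cerebellum sham 1 cortex exceeded cerebellum by 1.03 log2 units (adjusted p = 0.00103), and hippocampus against cerebellum turned to 0.31.

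The co-chaperones ran in opposite directions across the tissues. Fkbp4 (chromosome 6, 128429735 to 128438677, minus strand) was the most abundant of the 9 per exon length, with group means of 53.2 to 147.7 CPM per kilobase. Its sham levels were 143.2 to 235.5 CPM in hippocampus, 150.9 to 192.3 CPM in cortex and 269.3 to 507.3 CPM in cerebellum. Hippocampus stood below cerebellum at a log2 fold change of -1.04 ± 0.20 (adjusted p = 7.59e-04) and cortex below cerebellum at -1.22 ± 0.20 (adjusted p = 1.44e-04). Fkbp5 (chromosome 17, 28399094 to 28517527, minus strand) had 37.8 to 59.2 CPM in sham hippocampus, 32.7 to 43.0 CPM in sham cortex and 11.1 to 19.8 CPM in sham cerebellum. Hippocampus exceeded cerebellum by 1.70 ± 0.19 (adjusted p = 3.30e-06) and cortex exceeded it by 1.35 ± 0.19 (adjusted p = 2.88e-05). Hippocampus and cortex were not told apart for either gene, at 0.19 ± 0.20 for Fkbp4 (adjusted p = 0.790) and 0.35 ± 0.18 for Fkbp5 (adjusted p = 0.453).

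After bulbectomy neither co-chaperone was called. Hippocampal Fkbp5, a standard readout of glucocorticoid action, had 40.1, 49.1, 48.7 and 34.99 CPM after bulbectomy, against 52.2, 39.9, 38.4, 59.2 and 37.8 CPM after sham surgery. The groups overlapped throughout, and the log2 fold change of -0.020 ± 0.18 (adjusted p = 0.961) spans -0.39 to 0.35 at 2 SE. In the cortex Fkbp5 had 51.6, 38.1 and 37.0 CPM after bulbectomy, against 35.9, 32.7, 43.0, 37.0 and 34.2 CPM after sham surgery, where bulbectomy 1 alone lay above the sham range (0.24 ± 0.17, adjusted p = 0.878). In the cerebellum it had 16.6 and 18.2 CPM after bulbectomy, within the sham range (0.26 ± 0.29, adjusted p = 0.9998).

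For Fkbp4 the log2 fold changes after bulbectomy were -0.022 ± 0.19 in hippocampus (adjusted p = 0.958), -0.19 ± 0.16 in cortex (adjusted p = 0.888) and 0.019 ± 0.25 in cerebellum (adjusted p = 0.9998). The Fkbp5 to Fkbp4 log2 ratio per exon length averaged -3.58 after bulbectomy and -4.00 after sham surgery in the cortex (exact permutation p = 0.0893, adjusted 0.333, n = 3 and 5). In the hippocampus it averaged -3.86 after bulbectomy and -3.83 after sham surgery (exact permutation p = 0.984, n = 4 and 5). In the cerebellum it averaged -6.32 after bulbectomy and -6.57 after sham surgery (exact permutation p = 0.762, n = 2 and 5).

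Hsd11b1, the reductase that regenerates corticosterone inside cells (chromosome 1, 193221634 to 193264075, minus strand), was highest in the cerebellum. Sham hippocampi had 7.55 to 16.2 CPM and sham cortices 4.86 to 10.3 CPM, against 76.5, 54.4, 54.6, 71.3 and 57.6 CPM in the sham cerebella. Hippocampus stood below cerebellum at a log2 fold change of -2.31 ± 0.23 (adjusted p = 7.01e-07) and cortex below cerebellum at -3.25 ± 0.23 (adjusted p = 2.01e-08). Hippocampus exceeded cortex by 0.93 ± 0.22 (adjusted p = 0.0280), and this call ended when any 1 of 8 sham libraries (hippocampus 1, 3, 4 and 5, cortex 1, 2, 4 and 5) was left out, at adjusted p-values of up to 0.0850. Fkbp4, Hsd11b1 and Crhr1 were lower in every sham hippocampus than in any sham cerebellum, and Fkbp5, Crh and Crhbp higher, as were 9.4% and 8.97% of all genes. The same 6 genes did not overlap between sham cortex and sham cerebellum, in the same directions, where 13% of all genes were lower in cortex and 12.8% higher.

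After bulbectomy hippocampal Hsd11b1 had 15.03, 17.0, 16.5 and 19.5 CPM, against 12.4, 7.55, 16.2, 13.7 and 11.3 CPM after sham surgery. Sham 3 alone reached into the bulbectomy range, and the log2 fold change was 0.53 ± 0.22 with an unadjusted p of 0.0281 and an adjusted p of 0.194. In the cortex it had 8.43, 8.88 and 7.22 CPM after bulbectomy, against 4.86, 5.97, 10.3, 4.90 and 6.70 CPM after sham surgery (0.35 ± 0.28, adjusted p = 0.882). In the cerebellum it had 75.0 and 61.6 CPM after bulbectomy, within the sham range (0.11 ± 0.22, adjusted p = 0.9998).

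**Figure D5:**
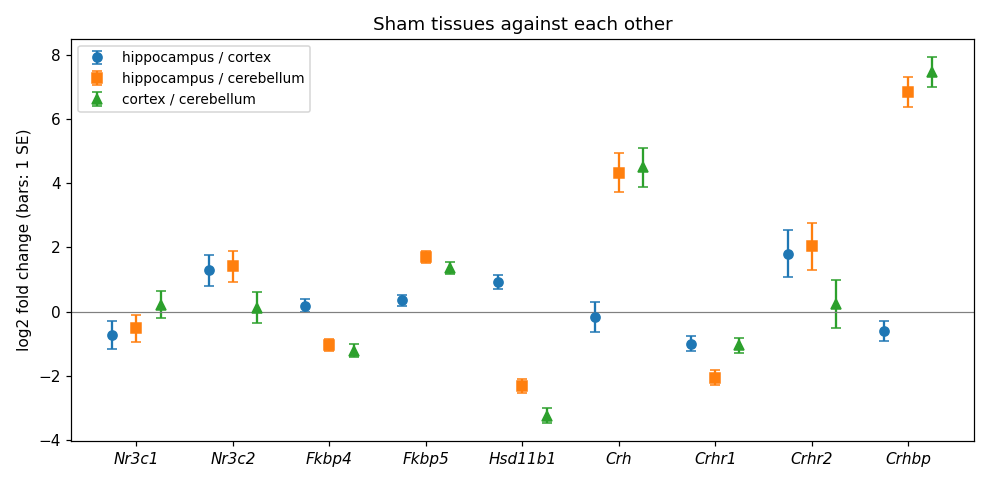
Log2 fold change between sham tissues for each gene, with bars of 1 SE, for hippocampus over cortex (circles), hippocampus over cerebellum (squares) and cortex over cerebellum (triangles). Crh and Crhbp stand far above 0 against the cerebellum, at 4.34 to 7.47, and Hsd11b1, Crhr1 and Fkbp4 below 0.

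Whether bulbectomy acted differently between tissues was tested as an interaction in a fit of all 24 libraries, and none of the 9 genes passed (0% of 16564 genes in each of the 3 contrasts). At an unadjusted p under 0.05 stood 466 genes for hippocampus minus cortex, 511 for hippocampus minus cerebellum and 276 for cortex minus cerebellum, and DESeq2 called 3, 2 and 0 genes. The hippocampal minus the cortical effect was -1.89 ± 0.72 log2 units for Crh (unadjusted p = 0.0147) and -1.07 ± 0.48 for Crhbp (unadjusted p = 0.0360), both with an adjusted p of 0.9998. The cortical minus the cerebellar effect was -0.88 ± 0.38 for Crhr1 (unadjusted p = 0.0290, adjusted p = 1.0).

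Other genes of the receptor pathway were followed through 5 lists. Over all genes tested in the bulbectomy hippocampus 0.551% rose and 1% fell. Of 12 members of the heat shock protein 90 chaperone cycle, 1 rose and 0 fell there, and their median log2 fold change was -0.012, beside 0.018 over all genes. The one that rose was Ptges3, the p23 co-chaperone that steadies hormone-ready receptors, at 24.2 to 33.8 CPM after bulbectomy against 6.35 to 18.9 CPM after sham surgery (1.25 ± 0.24, adjusted p = 0.0266). Of 10 coregulators, 0 rose and 1 fell, with a median of -0.10. That gene was Ncoa2, a coactivator of the glucocorticoid receptor, at 8.60 to 13.4 CPM after bulbectomy against 15.4 to 47.2 CPM after sham surgery (-1.37 ± 0.31, adjusted p = 0.0434). Each of these calls is to be read beside the balance of long against short transcripts, which was -0.426 to -0.2073 in the bulbectomy hippocampi and -0.3525 to 0.5006 in the sham hippocampi. With the trend over exon length removed, a setting added after the data were seen, Ptges3 gave 1.07 (adjusted p = 0.0338) and Ncoa2 -1.02 (adjusted p = 0.0429). Without hippocampus sham 1 and 2 they gave 1.005 (adjusted p = 0.0214) and -1.22 (adjusted p = 0.0139). Leaving out 1 library ended the Ptges3 call for bulbectomy 1, 2 or 4 or sham 3 (adjusted p up to 0.102) and the Ncoa2 call for any bulbectomy library or sham 1, 3 or 4 (up to 0.144).

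Among 24 genes known to be induced by glucocorticoids, 3 rose and 0 fell in the bulbectomy hippocampus, beside 0.551% and 1% of all genes, and the median log2 fold change was 0.42, beside 0.018 over all genes. The 3 were Plin4, which coats lipid droplets (1.20 ± 0.23, adjusted p = 0.0266), Tsc22d3, which encodes the leucine zipper GILZ (0.82 ± 0.19, adjusted p = 0.0470), and Nfkbia, which encodes an inhibitor of NF-κB (0.86 ± 0.20, adjusted p = 0.0470). The list was assembled with earlier results of these data known, and these calls are a description. Leaving out 1 library ended the Plin4 call for any bulbectomy library or sham 3 (adjusted p up to 0.103), the Tsc22d3 call for bulbectomy 1, 2 or 4 or sham 1, 3, 4 or 5 (up to 0.161) and the Nfkbia call for any bulbectomy library or sham 1, 3, 4 or 5 (up to 0.143). Without hippocampus sham 1 and 2 together Tsc22d3 had an adjusted p of 0.0601, and with the exon length trend removed Nfkbia had 0.0551. Markers of thalamus and habenula, which border the hippocampus, moved in the same libraries. Their sum over 12 genes was 426.7, 228.6, 298.8 and 304.5 CPM in the bulbectomy hippocampi, against 121.8, 74.66, 296.2, 115.7 and 295.3 CPM in the sham hippocampi. Of the 11 tested, 4 rose, namely Gpr151 (3.55 ± 0.53, adjusted p = 0.00660), Chrnb4 (2.63 ± 0.39, adjusted p = 0.00656), Tac2 (2.15 ± 0.31, adjusted p = 0.00656) and Rora (1.71 ± 0.29, adjusted p = 0.0137), 0 fell, and the median was 1.02. Their part in the hippocampal calls of the chaperone, coregulator and glucocorticoid lists was not tested. In the cortex 18 of 24 were positive with a median of 0.27, and in the cerebellum 20 of 24 with a median of 0.33, beside 0.0053 and -0.064 over all genes, and none passed in either tissue. The smallest p-values belonged to Tsc22d3 at 0.93 ± 0.21 (adjusted p = 0.376) and Ddit4 at 0.68 ± 0.18 (adjusted p = 0.522) in the cortex, and to Per1 at 0.66 ± 0.18 and Ddit4 at 0.69 ± 0.22 (both adjusted p = 0.9998) in the cerebellum. Fkbp5, the best known of such genes, is not in this list.

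The lists of steroid metabolism (6 of 8 tested) and of CRH-related and pituitary-adrenal peptides (7 of 13 tested in hippocampus, 6 in cortex, 5 in cerebellum) had 0 members called in either direction after bulbectomy in any tissue. In the hippocampus the smallest p-values were those of Abcb1a, a drug and steroid exporter of brain capillaries (-1.14 ± 0.31, adjusted p = 0.0731), Srd5a1, a steroid 5-alpha-reductase (0.81 ± 0.44, adjusted p = 0.320), oxytocin (Oxt, 2.01 ± 0.81, adjusted p = 0.193) and the prohormone convertase Pcsk1 (-0.47 ± 0.26, adjusted p = 0.323). In the cortex they were H6pd, which supplies the cofactor of the Hsd11b1 enzyme (-0.53 ± 0.28, adjusted p = 0.845), Abcb1a (-0.61 ± 0.39, adjusted p = 0.874), urocortin (Ucn, -1.77 ± 0.68, adjusted p = 0.770) and proopiomelanocortin (Pomc, 0.29 ± 0.43, adjusted p = 0.926). In the cerebellum, where every adjusted p was 0.9998, they were Cyp11a1 (-1.16 ± 0.51), Abcb1a (-1.13 ± 0.58), Pcsk1 (-0.70 ± 0.58) and Pomc (-0.28 ± 0.50).

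No chaperone or coregulator passed in the cortex or cerebellum after bulbectomy. The chaperones of smallest p were Hsp90aa1 at -0.39 ± 0.16 (adjusted p = 0.773) and Ptges3 at 0.69 ± 0.28 (adjusted p = 0.775) in the cortex, and Hsp90aa1 at -0.87 ± 0.48 and Bag1 at 0.31 ± 0.19 (both adjusted p = 0.9998) in the cerebellum. The coregulators of smallest p were Crebbp at 0.40 ± 0.27 (adjusted p = 0.875) and Ncoa2 at -0.57 ± 0.41 (adjusted p = 0.879) in the cortex, and Ncoa2 at -1.32 ± 0.77 and Nrip1 at -1.71 ± 1.11 (both adjusted p = 0.9998) in the cerebellum.

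Between sham tissues some partners of the 9 genes were called too. These calls stand beside 28.4% of all genes for hippocampus against cerebellum, 34.7% for cortex against cerebellum and 3.3% for hippocampus against cortex. H6pd, whose product drives the Hsd11b1 reductase, was lower in hippocampus than in cerebellum (-1.003 ± 0.20, adjusted p = 0.00126) and lower in cortex than in cerebellum (-1.06 ± 0.20, adjusted p = 6.20e-04), the same direction as Hsd11b1. Cyp7b1, a steroid hydroxylase, was higher than in cerebellum in hippocampus (1.41 ± 0.15, adjusted p = 2.10e-06) and in cortex (0.97 ± 0.15, adjusted p = 8.88e-05), and Srd5a1 was lower in cortex than in cerebellum (-1.27 ± 0.39, adjusted p = 0.0177). The peptide gene Adcyap1, which encodes PACAP, was higher than in cerebellum in hippocampus (2.33 ± 0.32, adjusted p = 2.92e-05) and in cortex (3.13 ± 0.32, adjusted p = 1.06e-06). The convertase Pcsk2 was higher than in cerebellum in hippocampus (0.97 ± 0.13, adjusted p = 2.95e-05) and in cortex (1.49 ± 0.13, adjusted p = 2.31e-07), and lower in hippocampus than in cortex (-0.52 ± 0.13, adjusted p = 0.0382). That last call ended without hippocampus sham 1 and 2 (0.118) and with the exon length trend removed (0.432).

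Of the chaperones, Ppp5c, a phosphatase of the receptor complex, was lower in hippocampus than in cerebellum (-0.42 ± 0.13, adjusted p = 0.0226) and in cortex than in cerebellum (-0.37 ± 0.13, adjusted p = 0.0377), and Hsp90aa1 was higher in cortex than in cerebellum (1.02 ± 0.24, adjusted p = 0.00346). Of the coregulators, Crebbp alone passed, higher in cortex than in cerebellum (1.36 ± 0.35, adjusted p = 0.00619), as were 16.8% of all genes. Within the list of 24 genes induced by glucocorticoids 3 stood higher and 5 lower in hippocampus than in cerebellum, beside 15.5% and 12.9% of all genes, and 3 were higher and 7 lower in cortex than in cerebellum, beside 16.8% and 17.9%. Gpd1 led both with -1.48 ± 0.21 (adjusted p = 4.37e-05) and -1.73 ± 0.21 (adjusted p = 7.17e-06), and Tsc22d3 was lower in both at -0.80 ± 0.19 (adjusted p = 0.00485) and -0.89 ± 0.19 (adjusted p = 0.00182), whereas Fkbp5 was higher in both. Also named by smallest p were Cebpd (1.63 ± 0.34, adjusted p = 0.00138) and Gjb6 (-0.80 ± 0.18, adjusted p = 0.00324) for hippocampus against cerebellum, and Mt1 (-1.65 ± 0.33, adjusted p = 8.60e-04) and Ddit4 (-0.82 ± 0.18, adjusted p = 0.00236) for cortex against cerebellum. For hippocampus against cortex Cebpd was the only one of the 24 called (1.34 ± 0.33, adjusted p = 0.0347, and 0.0559 without hippocampus sham 1 and 2). Omission of 1 library raised the adjusted p to as much as 0.113 for Pcsk2 and 0.116 for Cebpd in hippocampus against cortex, and for Ppp5c to 0.0660 in hippocampus and 0.102 in cortex, each against cerebellum.

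The genes most like each of the 4 most variable members were found from the root mean square difference of log2 CPM profiles centred over the 24 libraries, among 16586 genes. For Crhbp they were Gm49593 at 0.641, Rasl10a at 0.645 and Rtn4rl2 at 0.659 log2 units. For Crh 1700086L19Rik stood at 0.580 and Ngef at 0.618. Hsd11b1 had the nearest neighbours, Akain1 at 0.373, Dusp5 at 0.412 and Sept4 at 0.427. Crhr2 had the farthest, Ltc4s at 0.763, Cldn3 at 0.847 and Gna14 at 0.882. The libraries share tissue and depth differences, and these distances describe the profiles only.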

How the data were processed

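For each library the authors deposited raw read counts by gene, and these were taken unchanged. The submitters' processing notes name Trimmomatic, STAR, featureCounts and mm10, without their roles. The sources used here give no version, annotation or strand setting. Per the labels' protocols, RNA of an integrity number of at least 8 was made into directional polyA libraries (NEBNext Ultra II). Each file lists 55487 gene identifiers and 12 assignment totals, which were left out. GENCODE M21 on GRCm38 gave a symbol and coordinates for 55227.

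After filterByExpr and TMM scaling, the robust quasi-likelihood test of edgeR 4.0.16 (R 4.3.3) was run within each tissue for bulbectomy against sham, over the 15 sham libraries for tissues, and over all 24 for interactions. P-values are two-sided with Benjamini-Hochberg adjustment over all genes tested, and a gene was called under 0.05. Fold changes are log2 with standard errors of the same fit, and CPM uses TMM scaling over the 24 libraries. Ratios were tested by exact permutation. The script was tested on simulated counts. The 9 genes, the other lists and the tests were chosen with earlier results of these data known. Named genes of the 5 pathway lists were those called, at most 4 per list by p, or the 2 of smallest p where none was called. Same-numbered sham hippocampus and cerebellum libraries deviated together (correlations 0.398, 0.328, 0.439, 0.271 and 0.250). For replicate 4, however, the hippocampus library correlated more with a differently numbered cerebellum than with its own. The main test took all libraries as unpaired. Pairs entered only through a block for the replicate number and sign-flip tests of the Nr3c1 to Nr3c2 ratio. Alternatives were DESeq2 1.42.0, RLE and upper-quartile scaling, no low-count filter, a block for the replicate number, omission of single libraries, hippocampus sham 1 and 2 left out together, all 24 libraries in 1 fit and, chosen after seeing the data, removal of a trend over exon length (loess, span 0.3). No libraries held identical values. For the genes with profiles most like a member, the 3 nearest were named, except 1 that is not reported here.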

Additional observations from a re-analysis of the deposited data

Results flagged for a closer look

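Among the 36 groups of 4 or 5 libraries examined for the 9 genes, 2 held a library apart from the others by Dixon's test, which chance passes in about 1 group in 20. Both concern cerebellum sham 1. Its Nr3c1 level was 93.44 CPM, against 13.51 to 23.0 CPM in the other 4 sham cerebella, a gap of 0.881 of the whole range. Its Nr3c2 level was 34.18 CPM, against 7.359 to 9.141 CPM in the other 4, a gap of 0.934 of the range. The balance of long against short transcripts in this library was 1.248 log2 units, and its part in these values was not tested.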

How the results depend on the processing

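For bulbectomy against sham in the cortex, DESeq2, no low-count filter and the replicate block each called 1 of the 9 genes, Crhbp, where the main test called 0, and leaving out single libraries gave 0 to 1. For sham hippocampus against sham cortex, 1 was called without hippocampus sham 1 and 2, and 0 to 2 when single libraries were left out. Leaving out single libraries gave 6 to 7 of 9 for sham hippocampus against cerebellum and for sham cortex against cerebellum. These 2 counts were 8 and 6 in the main test, and the other alternatives gave 6 to 8 and 6. For bulbectomy in the hippocampus or cerebellum, and for the interactions, 0 of the 9 were called under each alternative run. Over all genes, calls in the hippocampus after bulbectomy numbered 217 in the main test, 954 with DESeq2, 375 with the length trend removed, 348 without sham 1 and 2, 76 with the replicate block and 30 (without bulbectomy 2) to 477 (without sham 2) without single libraries. In the cortex 3 became 39 with DESeq2, 24 without a filter, 13 with the block, 7 with RLE scaling, 6 with the length trend removed, 5 with all 24 libraries and 1 to 573 (without bulbectomy 1) without single libraries. In the cerebellum 2 became 12 with DESeq2, 0 with the block and 0 to 36 (without sham 1) without single libraries. For sham hippocampus against cortex 500 became 895 with DESeq2, 765 with the block, 768 with all 24 libraries and 284 to 592 without single libraries.

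Of 408 fold changes of the 9 genes under alternatives other than leaving out 1 library, 391 kept direction and side of the threshold, 5 lost a call, 3 gained one and 9 turned in direction, all of them uncalled. Of 521 with 1 library left out, the numbers were 463, 27, 3 and 28. For the named genes of the pathway lists they were 417, 24, 6 and 0 of 447, and 473, 58, 4 and 2 of 537. The 9 that turned were Fkbp4 at 0.080 and Crhr2 at -0.048 in hippocampus with the replicate block, Fkbp5 in hippocampus at 0.18 with the length trend removed and 0.033 without sham 1 and 2, Nr3c2 in cortex at 0.048 with the trend removed and 0.0031 with all 24 libraries, and Fkbp4 in cerebellum at -0.0020 with RLE scaling, -0.0020 with DESeq2 and -0.044 with the trend removed. Bulbectomy minus sham log2 ratios turned for Nr3c1 to Nr3c2 (0.14) and Fkbp5 to Fkbp4 (0.060) in hippocampus without sham 1 and 2, and for Fkbp5 to Fkbp4 in cerebellum with the replicate block (-0.18). The cause was not tested.

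With 1 library left out, log2 fold changes after bulbectomy in hippocampus ran from -0.18 to 0.034 for Fkbp4, -0.16 to 0.077 for Fkbp5 and -0.13 to 0.25 for Crhr2. In cortex they ran from -0.57 to 0.013 for Nr3c1, -0.29 to 0.29 for Nr3c2, -0.13 to 0.44 for Crh and -0.25 to 0.71 for Pomc. In cerebellum they ran from -0.86 to 0.43 for Nr3c2, -0.13 to 0.16 for Fkbp4, -0.039 to 0.26 for Hsd11b1, -2.39 to 1.52 for Crhr2 and -0.76 to 0.10 for Pomc. Between sham tissues they ran from -0.51 to 0.11 for Crh in hippocampus against cortex, -0.71 to 0.31 for Nr3c1 in hippocampus against cerebellum, and -0.020 to 0.78 for Nr3c2 and -0.11 to 1.06 for Crhr2 in cortex against cerebellum. Hippocampal log2 ratio differences ran from -0.33 to 0.16 for Nr3c1 to Nr3c2 and -0.16 to 0.17 for Fkbp5 to Fkbp4. Where this left 1 bulbectomy cerebellum, it was assumed to vary like the sham libraries.

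With the replicate block Crhbp in the cortex had an adjusted p of 0.0184 and a log2 fold change of 1.70, and in sham hippocampus against cerebellum 8 of the 9 were called, as without it, and 5304 against 4296 genes in all. Outside that comparison same-numbered libraries did not deviate together in every pair, with correlations of -0.28 to 0.035 between bulbectomy and sham hippocampi and of -0.18 to 0.15 between bulbectomy and sham cortices. Between sham hippocampus and cortex they were 0.288, 0.256, 0.454, 0.2501 and -0.102, and between sham cortex and cerebellum 0.218, 0.257, 0.415, 0.299 and -0.162, so that replicates 1 to 4 deviated together and replicate 5 did not. The main test did not take the numbers as pairs, in these 4 comparisons or in sham hippocampus against cerebellum. In the cerebellum the correlations were 0.32 and 0.24 from 2 pairs. With the replicate block the sham difference in the log2 ratio of Nr3c1 to Nr3c2, -1.83 for hippocampus against cortex and -1.59 against cerebellum, had exact sign-flip permutation p-values of 0.0625, the smallest that 5 pairs can give, and 0.125, a test added after the data were seen. Depth limits the low genes most: Crh and Crhbp in the cerebellum had at most 6 reads in a library, and counts cover counting error only.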
